A study of Rattus norvegicus with 9 samples.

Results

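The genes of fatty acid synthesis and desaturation were read in rat liver as a set of 10: Fasn, Acaca, Acly, Me1, Elovl6, Srebf1, Thrsp, Gpam, Fads1 and Fads2. They were taken by gene symbol from the 14377 genes that the array table names by a single symbol. The set is read by 18 probe sets, groups of short oligonucleotides that each report a transcript, and 7 of the 10 genes have more than 1 of them. Where there are several, the brightest on average stands for the gene and the others are described beside it. All 10 of these were called present, that is detected, on all 9 arrays.

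Total RNA from frozen liver of 9 male Sprague-Dawley rats was measured, with 1 array for each rat and 3 rats in each group. Vehicle rats (numbered 3, 4 and 5) received no carbon tetrachloride (CCl4). CCl4 rats (1, 2 and 3) were injected intraperitoneally with CCl4 in olive oil for 8 weeks, which scars the liver through repeated death of hepatocytes. CCl4+Rot rats (4, 5 and 6) had the same CCl4 course and in addition intraperitoneal rottlerin, an activator of large-conductance calcium-activated potassium (BK) channels, at 2.5 mg/kg, 2 weeks after the first CCl4 dose. The sources used here give no age, no feeding state at collection and no composition of the vehicle, and every rottlerin rat also carried CCl4, so that rottlerin alone was not measured.

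In the liver, surplus carbohydrate is turned into fat by a short chain of enzymes. Citrate exported from mitochondria is cleaved to acetyl-CoA, acetyl-CoA is carboxylated to malonyl-CoA, and fatty acid synthase joins these units with NADPH as the reductant. Elongases and desaturases then lengthen the chain and add double bonds, and acyltransferases place the products on glycerol. The chain is switched on transcriptionally by feeding and insulin through the sterol regulatory element binding protein SREBP-1c and the carbohydrate-responsive factor ChREBP.

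Fasn, Acaca, Acly and Srebf1 lie on rat chromosome 10, Thrsp, Gpam, Fads1 and Fads2 on chromosome 1, Me1 on chromosome 8 and Elovl6 on chromosome 2, as the array table places them. Promoter windows of 300 bases, from 250 before to 50 after a start site, were available in the RefSeq table (build GRCr8) for 7 of the 10 genes, all but Fasn, Acaca and Elovl6. They were searched on both strands for the core of a sterol regulatory element (TCACNCCAC), the E-box CACGTG, the CCAAT box (CCAAT) and the GC box (GGGCGG); none of the 4 contains another. Of all 33469 windows in that table, 1.12% hold the first, 6.42% the second, 37.5% the third and 33.1% the fourth. No window of the 7 genes held TCACNCCAC or CACGTG. The windows of 4 genes are printed because the values below turn on them: in Me1, Gpam and Thrsp the CCl4 and vehicle rats did not overlap, and Acly varied widely between rats of one group. Capitals mark each CCAAT or GC box on either strand (ATTGG and CCGCCC are the same boxes read from the other strand).
Me1, chr8:96540195-96540494, minus strand: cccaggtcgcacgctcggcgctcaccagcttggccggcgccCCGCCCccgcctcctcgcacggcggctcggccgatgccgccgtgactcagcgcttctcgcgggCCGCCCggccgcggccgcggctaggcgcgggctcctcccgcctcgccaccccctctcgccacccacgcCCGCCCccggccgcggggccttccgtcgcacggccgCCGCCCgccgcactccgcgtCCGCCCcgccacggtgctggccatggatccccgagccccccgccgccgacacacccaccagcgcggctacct
Gpam, chr1:264175862-264176161, minus strand: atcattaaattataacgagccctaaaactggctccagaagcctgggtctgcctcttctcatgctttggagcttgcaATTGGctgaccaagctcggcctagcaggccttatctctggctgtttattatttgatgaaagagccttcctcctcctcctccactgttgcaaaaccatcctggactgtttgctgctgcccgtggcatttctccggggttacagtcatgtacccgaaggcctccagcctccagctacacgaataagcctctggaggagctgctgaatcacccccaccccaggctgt
Thrsp, chr1:161138915-161139214, minus strand: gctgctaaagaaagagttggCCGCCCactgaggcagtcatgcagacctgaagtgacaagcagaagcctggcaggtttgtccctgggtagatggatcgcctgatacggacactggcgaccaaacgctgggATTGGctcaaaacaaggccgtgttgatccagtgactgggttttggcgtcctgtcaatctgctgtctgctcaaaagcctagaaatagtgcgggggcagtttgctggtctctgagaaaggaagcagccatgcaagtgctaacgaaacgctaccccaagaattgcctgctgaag
Acly, chr10:85963582-85963881, minus strand: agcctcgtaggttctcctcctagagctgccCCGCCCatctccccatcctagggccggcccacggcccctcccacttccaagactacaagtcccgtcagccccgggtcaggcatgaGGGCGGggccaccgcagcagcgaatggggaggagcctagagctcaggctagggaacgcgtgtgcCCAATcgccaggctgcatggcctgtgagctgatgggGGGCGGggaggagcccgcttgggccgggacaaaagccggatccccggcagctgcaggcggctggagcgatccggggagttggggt
The Me1 window held 5 GC boxes and no CCAAT box. The Acly window held 3 GC boxes and 1 CCAAT box, the Thrsp window 1 of each, and the Gpam window a CCAAT box alone. These are matches of letters in a window and were not tested as binding sites.

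The arrays were alike in depth with one exception. Between 15550 and 16849 probe sets were called present on 8 arrays, and 12714 on the array of CCl4 rat 3. The median log2 signal of all probe sets was 7.81 on that array against 6.79 to 7.01 on the others, whereas over the 11231 probe sets detected on every array it was 9.53 against 9.51 to 9.58. The 10 hepatocyte markers were present on all 9 arrays, with a summed level (log2 of the added signals) of 18.00 to 18.17 in vehicle, 17.53 to 18.09 in CCl4 and 18.06 to 18.14 in CCl4+Rot rats, lowest in CCl4 rat 3. The summed level of 8 stellate cell and myofibroblast markers was 12.84 to 13.62 in vehicle, 14.14 to 14.95 in CCl4 and 14.76 to 15.06 in CCl4+Rot rats. It rested largely on Col3a1, with means of 12.67, 13.84 and 14.35. For CCl4+Rot against CCl4, 5 of the 8 markers had a higher mean and 3 a lower. In whole tissue, fewer cells of a type and less RNA per cell cannot be told apart.

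No gene of the set passed the test in any comparison. A probe set was called when its Benjamini-Hochberg adjusted p over all 31042 probe sets, from limma, was below 0.05 and its change was at least 1.5-fold, and 0 of the 10 genes were called for CCl4 against vehicle, for CCl4+Rot against CCl4 or for CCl4+Rot against vehicle. The background was about as empty, since 0.0%, 0.00322% and 0.0258% of all probe sets were called in these comparisons. The values below are therefore given with their intervals, and what did not pass is not described as a change. The plot of the signal in each rat shows every value.

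**Figure D1:**
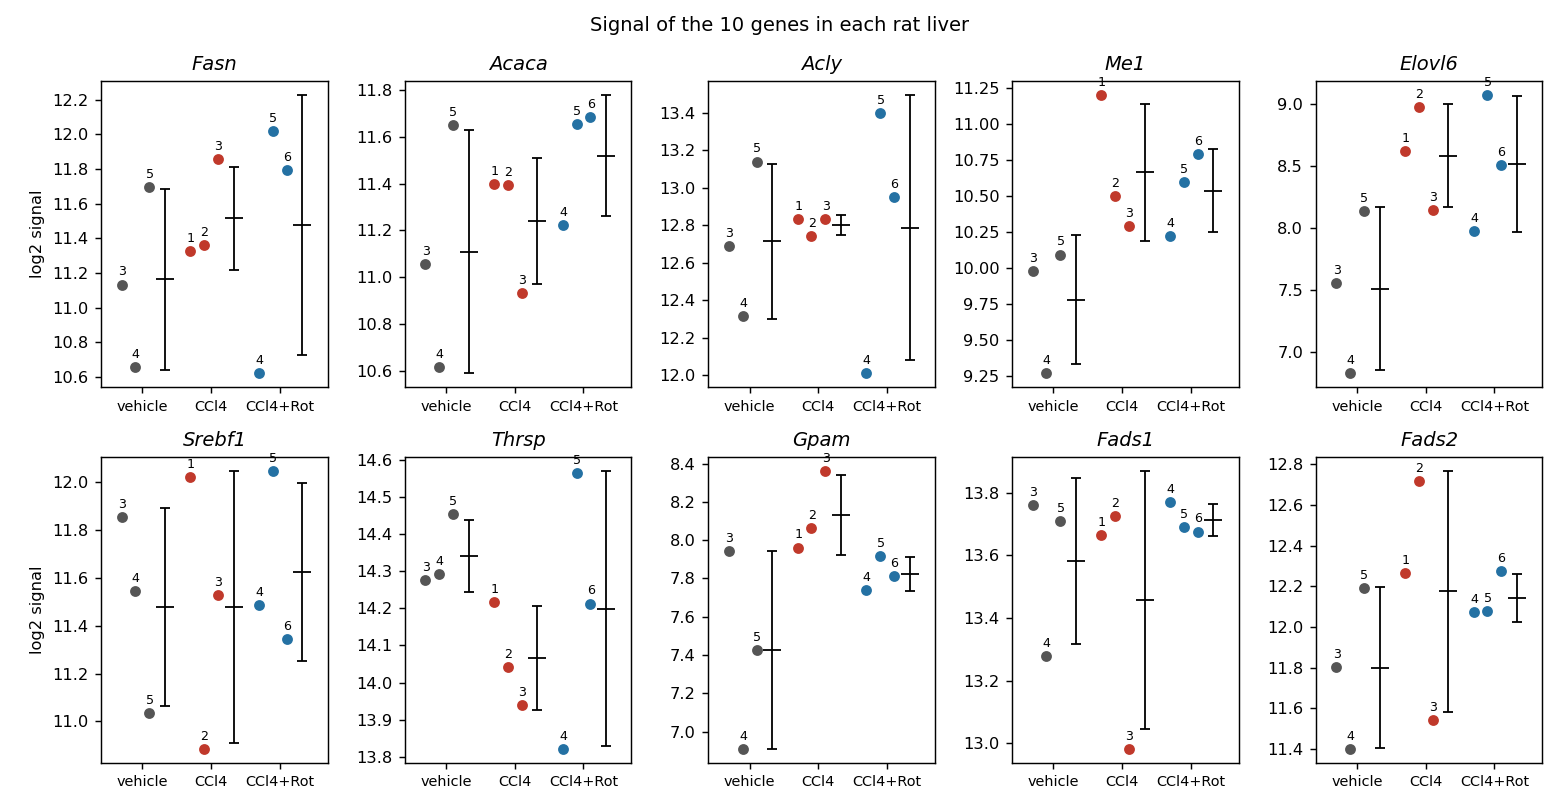
log2 signal (y axis, a separate scale for each gene) of the brightest probe set of the 10 genes in each rat liver, with points numbered by rat, and a dash with bars for the mean ± SD of the 3 rats of a group. The CCl4 points lie above all vehicle points for Me1, Elovl6 and Gpam and below them for Thrsp, and vehicle rat 4 and CCl4+Rot rat 4 are often the lowest of their groups.

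Against vehicle, CCl4 livers had a higher mean signal of 3 genes, Me1, Elovl6 and Gpam, with no overlap between the groups, and none of the 3 passed the adjusted test. Me1, malic enzyme, makes NADPH in the cytosol for fatty acid synthesis. Its log2 signal was 9.98, 9.27 and 10.09 in the vehicle rats, 11.20, 10.50 and 10.29 in the CCl4 rats and 10.22, 10.59 and 10.79 in the CCl4+Rot rats. Every rat given CCl4, with or without rottlerin, lay above every vehicle rat. The means were 9.78 ± 0.45, 10.66 ± 0.48 and 10.54 ± 0.29 (SD, n = 3). The difference between CCl4 and vehicle was 0.88 ± 0.33 (SE) on the log2 scale, or 1.85-fold with a 95% interval of 1.09 to 3.13, with an adjusted p of 0.353 in limma.

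Elovl6, the elongase that lengthens palmitate to stearate, gave 7.56, 6.83 and 8.14 in vehicle, 8.62, 8.98 and 8.15 in CCl4 and 7.97, 9.07 and 8.51 in CCl4+Rot rats. The lowest CCl4 rat stood only just above the highest vehicle rat, at 8.15 against 8.14. The mean was 1.07 ± 0.42 (SE) log2 units higher in CCl4, a 2.11-fold difference with an interval of 1.07 to 4.16 (limma adjusted p = 0.370).

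Gpam, the mitochondrial acyltransferase that starts triglyceride synthesis from glycerol 3-phosphate, gave 7.94, 6.91 and 7.43 in vehicle, 7.96, 8.06 and 8.36 in CCl4 and 7.74, 7.92 and 7.81 in CCl4+Rot rats. CCl4 rats again lay above vehicle, though only by 7.96 against 7.94 for the nearest rats, and the CCl4+Rot rats lay inside the vehicle range and below every CCl4 rat. The mean difference of CCl4 from vehicle was 0.70 ± 0.27 (SE), or 1.63-fold with an interval of 1.05 to 2.52 (limma adjusted p = 0.363).

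Thrsp, a lipogenic protein first known for its response to thyroid hormone and carbohydrate, was the gene of the set whose CCl4 rats all lay below the vehicle rats. Its signal was 14.28, 14.29 and 14.45 in vehicle, 14.22, 14.04 and 13.94 in CCl4 and 13.82, 14.56 and 14.21 in CCl4+Rot rats. The mean difference of CCl4 from vehicle was -0.27 ± 0.22 (SE), 0.827-fold with an interval of 0.583 to 1.17 (limma adjusted p = 0.622). The vehicle rats were within 0.18 of each other, and the CCl4+Rot rats spanned 0.74, from the lowest to the highest value of all 9 rats.

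Beside these counts stand those of all probe sets. At an unadjusted limma p below 0.05 there were 3 of the 10 genes (Me1, Elovl6 and Gpam) against 12.4% of all probe sets. The same 3 genes were at least 1.5-fold higher in CCl4, against 28.0%, and 0 genes were at least 1.5-fold lower, against 7.27%. The groups did not overlap for 3 genes that were higher, against 11.1%, and for 1 that was lower, against 7.14%. Among the probe sets present on all arrays, as the members are, 14.0% had an unadjusted p below 0.05, 8.34% were at least 1.5-fold higher and 4.45% lower, and 11.2% were higher and 14.2% lower without overlap. The median difference over the 10 genes was 0.24 on the log2 scale, beside 0.18 over all probe sets and -0.01 over those present on all arrays.

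The 3 genes rested in part on single rats. Without vehicle rat 4, the lowest of its group for each of them, the log2 difference of CCl4 from vehicle was 0.63 for Me1, 0.73 for Elovl6 and 0.45 for Gpam, and no gene of the set had an unadjusted p below 0.05. Without CCl4 rat 3, whose array had the fewest present calls, the same differences were 1.07, 1.29 and 0.59, that of Thrsp was -0.21, and Me1, Elovl6 and Fads2 had an unadjusted p below 0.05, Gpam no longer. Scaling mattered as well: with each array centred on the median of all its probe sets, which moved the median difference of all probe sets from 0.18 to -0.18, the differences were 0.53 for Me1, 0.72 for Elovl6, 0.35 for Gpam and -0.63 for Thrsp. The direction of these 4 genes was the same under every scaling tried, and Thrsp was nearest to 0 after quantile normalization, at -0.09. The unadjusted limma p was less stable. It was below 0.05 for no gene of the set with that centring and for Me1 alone with quantile normalization. Without CCl4 rat 1 it was so for Gpam alone, and without CCl4 rat 2 for Me1 alone.

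The other 6 genes overlapped between CCl4 and vehicle. Fasn, fatty acid synthase, gave 11.13, 10.66 and 11.70 in vehicle, 11.33, 11.36 and 11.86 in CCl4 and 10.62, 12.02 and 11.79 in CCl4+Rot rats. Acaca, the acetyl-CoA carboxylase that makes malonyl-CoA for synthesis, gave 11.06, 10.62 and 11.65 in vehicle, 11.40, 11.39 and 10.93 in CCl4 and 11.22, 11.65 and 11.68 in CCl4+Rot rats. Acly, the citrate lyase that supplies cytosolic acetyl-CoA, gave 12.69, 12.31 and 13.14, then 12.83, 12.74 and 12.83, then 12.01, 13.40 and 12.95 in the same order of groups. The 3 enzymes of the core chain thus had vehicle ranges that held most of the CCl4 values. Their differences of CCl4 from vehicle were 0.35 ± 0.42, 0.13 ± 0.30 and 0.09 ± 0.37 (SE) on the log2 scale. The 95% intervals ran from -0.64 to 1.34 for Fasn, from -0.57 to 0.83 for Acaca and from -0.77 to 0.95 for Acly, so that neither a 1.5-fold rise nor its absence was resolved. The Fasn difference was 0.10 without vehicle rat 4, 0.18 without CCl4 rat 3 and 0.62 without vehicle rat 5.

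Srebf1, which encodes SREBP-1, the factor that drives transcription of most of these enzymes, gave 11.85, 11.55 and 11.04 in vehicle, 12.02, 10.88 and 11.53 in CCl4 and 11.49, 12.05 and 11.34 in CCl4+Rot rats. The vehicle and CCl4 means were both 11.48, with an interval for the log2 difference of -0.84 to 0.84. Its rats were spread over 1.16 log2 units.

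Fads1 and Fads2, the delta-5 and delta-6 desaturases that build polyunsaturated fatty acids, lie side by side on chromosome 1. Fads1 gave 13.76, 13.28 and 13.71 in vehicle, 13.66, 13.73 and 12.98 in CCl4 and 13.77, 13.69 and 13.68 in CCl4+Rot rats. Fads2 gave 11.80, 11.40 and 12.19, then 12.26, 12.72 and 11.54, then 12.08, 12.08 and 12.28. In both genes CCl4 rat 3 was the lowest of its group, and the CCl4+Rot rats were close together, within 0.09 for Fads1 and 0.20 for Fads2. The difference of CCl4 from vehicle was -0.12 ± 0.25 (SE) for Fads1 and 0.38 ± 0.33 for Fads2. That of Fads2 was 0.69 without CCl4 rat 3, 0.11 without CCl4 rat 2 and 0.79 with array weights, with an unadjusted limma p below 0.05 in the first and the last of these. That of Fads1 was 0.11 without CCl4 rat 3.

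**Figure D2:**
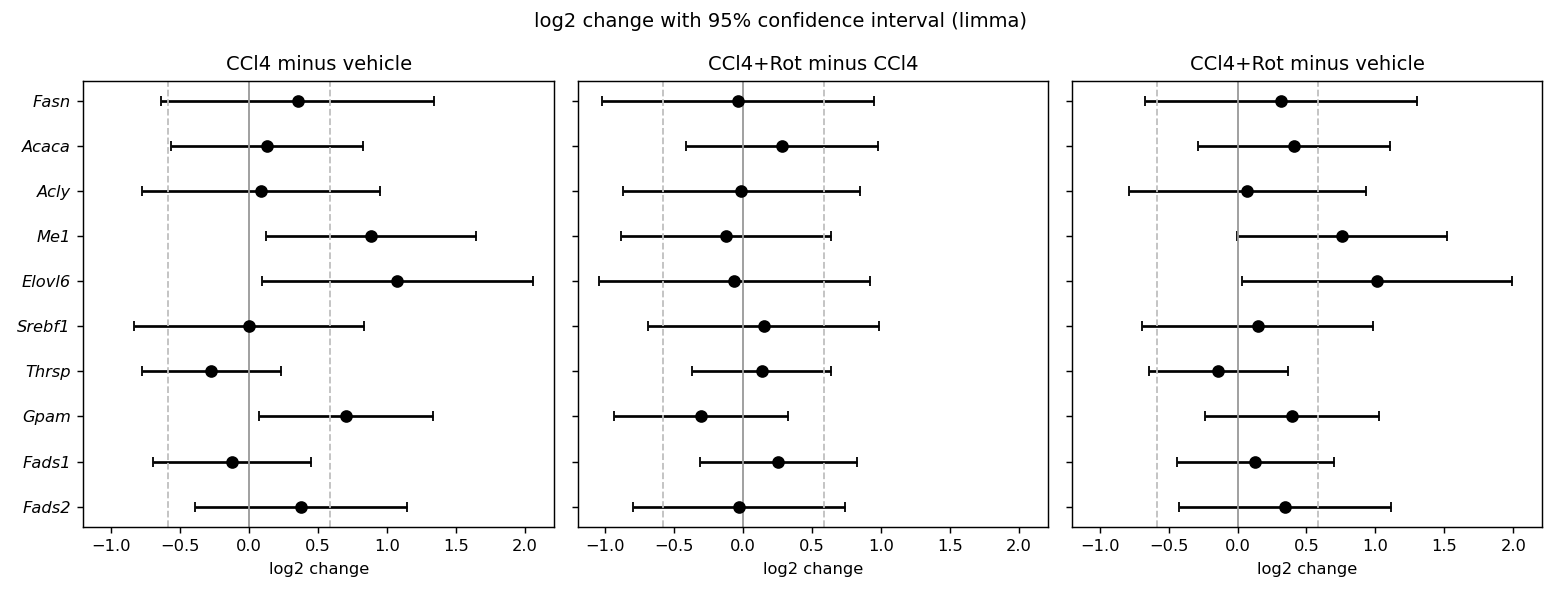
log2 difference (x axis) of the 10 genes in the 3 comparisons, each point a limma estimate with its 95% confidence interval, the solid line at 0 and the dashed lines at 1.5-fold. The intervals of Me1, Elovl6 and Gpam for CCl4 against vehicle and of Elovl6 for CCl4+Rot against vehicle do not reach 0, before any adjustment for the number of probe sets.

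Rottlerin given on top of CCl4 went with small mean differences in all 10 genes, from -0.31 for Gpam to 0.28 for Acaca on the log2 scale. The next highest was Fads1 at 0.25, and without CCl4 rat 3 Acaca stood at 0.12 and Fads1 at 0.02. With all arrays Fasn, Acly, Elovl6 and Fads2 were within 0.07 of 0. The limma adjusted p was 0.804 or higher for every gene. At an unadjusted p below 0.05 there were 0 genes, against 6.63% of all probe sets, and 0 genes differed by 1.5-fold, against 6.81% that were higher and 24.1% that were lower. The CCl4+Rot rats lay below all CCl4 rats for 1 gene, Gpam, against 6.88% of all probe sets, and above them for 0 genes, against 4.73%. Among the probe sets present on all arrays, the share with an unadjusted p below 0.05 was 4.26%, 2.56% were at least 1.5-fold higher and 2.89% lower, and without overlap 8.0% were higher and 4.89% lower. The median over the 10 genes was -0.02, beside -0.12 over all probe sets and 0.02 over those present on all arrays.

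These data do not bound the rottlerin difference tightly. The interval was narrowest for Thrsp, from -0.37 to 0.64, and widest for Fasn, from -1.03 to 0.95, and each of the 10 intervals passed 1.5-fold on at least 1 side. For Gpam it ran from -0.94 to 0.32. The Gpam difference was -0.19 without CCl4 rat 3, which held the highest Gpam signal of all rats, and -0.06 with arrays centred on the median of all probe sets.

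CCl4+Rot livers compared with vehicle shared the vehicle rats with the first comparison, so the values are set side by side and not counted as further evidence. Elovl6 was 1.01 ± 0.42 (SE) log2 units above vehicle (limma adjusted p = 0.583) and Me1 0.76 ± 0.33 (adjusted p = 0.605), beside 1.07 and 0.88 for CCl4 alone. Gpam stood at 0.40 ± 0.27 beside 0.70, and Acaca at 0.41 ± 0.30 beside 0.13, and without vehicle rat 4 they stood at 0.14 and 0.16 above vehicle. At an unadjusted p below 0.05 there was 1 gene, Elovl6, against 8.31% of all probe sets, and at least 1.5-fold higher were 2, Me1 and Elovl6, against 15.4%. No gene was 1.5-fold lower, against 11.5%. The groups did not overlap for Me1, which was higher, against 11.9%, and for no gene that was lower, against 9.15%. Among the probe sets present on all arrays these shares were 9.58% at the unadjusted p, 6.99% and 2.45% at 1.5-fold higher and lower, and 15.4% and 14.2% without overlap. The median over the 10 genes was 0.33, beside 0.01 over all probe sets, and 9 of the 10 means were above vehicle. Without vehicle rat 4 the median was 0.14 and no gene had an unadjusted p below 0.05.

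Where a gene had several probe sets, these differed most for Gpam in the CCl4 and the rottlerin comparisons. Its second probe set was dimmer and was called marginal in CCl4 rat 3 and CCl4+Rot rat 5. It gave 6.19, 5.44 and 5.24 in vehicle, 7.32, 6.72 and 7.44 in CCl4 and 6.06, 5.90 and 6.16 in CCl4+Rot rats. CCl4 rats lay above all others, and CCl4+Rot rats lay within the vehicle range. CCl4 was 1.54 ± 0.30 (SE) log2 units above vehicle, 2.90-fold with an interval of 1.78 to 4.72 (limma adjusted p = 0.202), and the difference of CCl4+Rot from CCl4 was -1.12 ± 0.30 (SE), with an interval of -1.83 to -0.42 (adjusted p = 0.650). Without CCl4 rat 3 these differences were 1.40 and -0.98. The brightest probe set gave 0.70 and -0.31, so the size of the Gpam difference depended on which probe set was read.

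The second Me1 probe set gave 9.05, 8.09 and 8.26 in vehicle, 10.59, 9.94 and 9.56 in CCl4 and 9.29, 9.74 and 10.69 in CCl4+Rot rats. It repeated the order seen with the first, all 6 rats given CCl4 above all 3 vehicle rats. The difference was 1.57 ± 0.45 (SE) for CCl4 and 1.44 ± 0.45 for CCl4+Rot against vehicle (limma adjusted p = 0.267 and 0.409). For Elovl6 the second probe set, called present on 6 arrays, gave 0.53 ± 0.42 for CCl4 against vehicle, with overlapping groups, where the first gave 1.07. For CCl4+Rot against vehicle it gave 0.27 ± 0.42, again with overlap, where the first gave 1.01. The 2 further Thrsp probe sets gave -0.37 and -0.43 for CCl4 against vehicle, and in both all CCl4 rats were again below the vehicle rats. The probe sets of one gene were measured on the same RNA and are not separate replicates. Paired probe sets of Fasn and of Srebf1 differed by 0.01 for CCl4 against vehicle and those of Acaca by 0.20. The dimmer Acaca probe set, called marginal in CCl4 rat 2 and absent in CCl4 rat 3, stood at -0.07 there, where the brightest gave 0.13. It stood at 0.02 for CCl4+Rot against CCl4 and -0.05 for CCl4+Rot against vehicle, where the brightest gave 0.28 and 0.41.

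**Figure D3:**
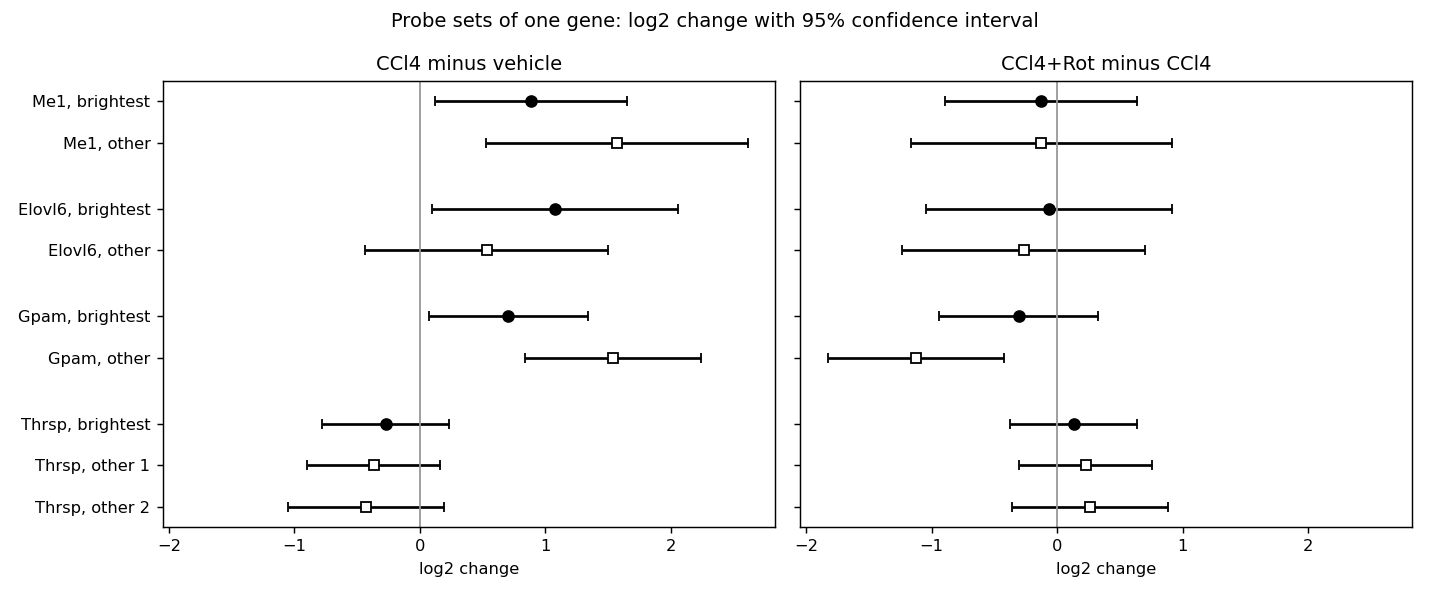
log2 difference (x axis) for CCl4 against vehicle and for CCl4+Rot against CCl4, by probe set of Me1, Elovl6, Gpam and Thrsp, with 95% confidence intervals from limma, filled circles for the brightest probe set and open squares for the others. The second Gpam probe set lies furthest from 0 in the rottlerin comparison, at -1.12, while the brightest one is at -0.31.

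The spread between rats of one group was larger than the difference between group means for most of the set. Fasn ranged 2.63-fold over the 9 rats, from CCl4+Rot rat 4 to CCl4+Rot rat 5, and no pair of group means differed by more than 0.35 log2 units. Acly ranged 2.62-fold between the same rats, with group means within 0.09 of each other. Both extremes of Thrsp were also CCl4+Rot rats 4 and 5. The rats given the same treatment held the extremes of 3 of the 10 genes. The share of all probe sets with both extremes in the same group was not computed. The count therefore describes these rats and is not read as particular to these genes.

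The genes tended to be low in the same rats. Vehicle rat 4 was the lowest of its group in 8 of the 10 genes, all but Srebf1 and Thrsp, and CCl4+Rot rat 4 in 8, all but Srebf1 and Fads1. Among the probe sets present on all arrays these rats were lowest in 32.4% and 35.2%. Vehicle rat 5 was highest in 7 genes and CCl4+Rot rat 5 in 6, against 33.4% and 30.9%. The median deviation of the 10 genes from the group mean was -0.45 for vehicle rat 4, 0.35 for vehicle rat 5, -0.31 for CCl4+Rot rat 4 and 0.25 for CCl4+Rot rat 5. Srebf1 did not share the order in the vehicle group, where rat 5 was its lowest. In the CCl4 group, rat 3 was lowest in 6 genes, against 39.6% of those probe sets, and highest in Fasn and Gpam. The genes are not independent of each other, so these counts describe the rats and were not tested. The summed hepatocyte markers were 18.17 in vehicle rat 4, the highest of its group, and 18.06 in CCl4+Rot rat 4, the lowest of its group. The part of hepatocyte content in this order was not tested.

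**Figure D4:**
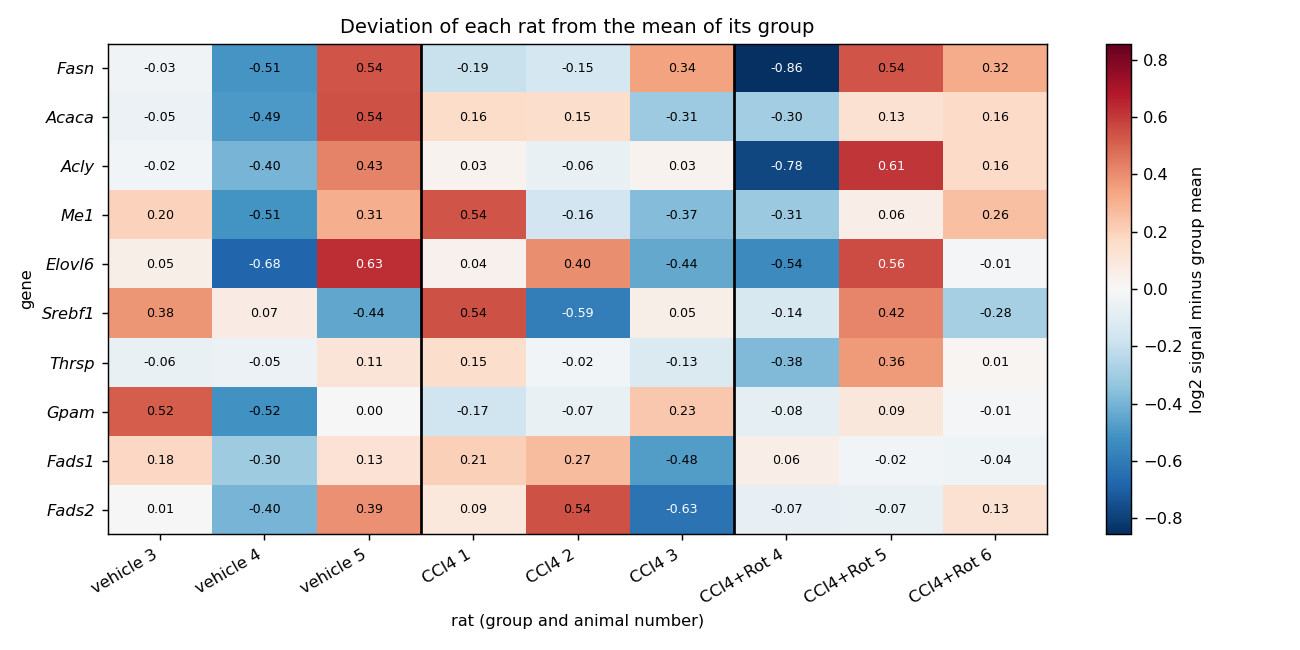
log2 signal of each gene (y axis) in each rat (x axis) minus the mean of its group of 3, in colour and in numbers, with vertical lines between the groups. The columns of vehicle rat 4 and CCl4+Rot rat 4 are mostly below their group means and those of vehicle rat 5 and CCl4+Rot rat 5 mostly above.

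Scd, the stearoyl-CoA desaturase of liver that makes monounsaturated fatty acids, is the neighbour of the set in the pathway and varied widely between rats. It gave 14.46, 13.66 and 14.66 in vehicle, 14.26, 12.05 and 12.76 in CCl4 and 12.10, 14.58 and 13.06 in CCl4+Rot rats. Vehicle rat 4 and CCl4+Rot rat 4 were again the lowest of their groups and rat 5 the highest in both. The difference of CCl4 from vehicle was -1.23 ± 0.75 (SE) and its interval, -2.99 to 0.52, was too wide to place. Scd2, a related desaturase, was dimmer and gave 6.59, 6.22 and 6.50 in vehicle, 6.93, 7.50 and 8.32 in CCl4 and 7.01, 7.28 and 7.04 in CCl4+Rot rats. All vehicle rats lay below all others, with CCl4 1.14 ± 0.34 (SE) log2 units above vehicle (limma adjusted p = 0.278), and its highest value, in CCl4 rat 3, was called marginal.

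Other genes of the pathway were read from 4 lists, 47 of whose 49 genes were matched in the table and 41 of which were present on all arrays. None had a limma adjusted p below 0.05 in any comparison. At an unadjusted p below 0.05 there were 6 higher and 3 lower for CCl4 against vehicle (19.1% of 47), 0 higher and 3 lower for CCl4+Rot against CCl4 (6.38%), and 1 of each for CCl4+Rot against vehicle (4.26%). The shares of all probe sets were 12.4%, 6.63% and 8.31%. Of the 3 lower genes in the rottlerin comparison, Acacb and Mogat2 were called present on no array of the groups compared and Acsl3 was the 1 detected, and Mogat2 is also 1 of the 6 higher for CCl4 against vehicle.

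Of 10 genes for substrates and NADPH, 6 had a higher mean in CCl4 than in vehicle, with a list median of 0.28 that was 0.06 without CCl4 rat 3, and none had an unadjusted p below 0.05 in that comparison. Tkt and Pgd, enzymes of the pentose phosphate pathway, stood at 0.58 and 0.53. Acacb, the mitochondrial carboxylase, passed the unadjusted threshold in the rottlerin comparison but was detected in neither of its groups, so no fold is printed.

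Of 9 partners of elongation and desaturation, 7 had a lower mean in CCl4 than in vehicle and the list median was -0.29. The members with an unadjusted p below 0.05 were higher, Scd2 and Elovl1, an elongase of saturated chains, at 0.44 ± 0.16 (limma adjusted p = 0.349). With rottlerin, 7 of the 9 had a higher mean than in CCl4, with a median of 0.22, but without CCl4 rat 3 this was 5 of the 9, with a median of 0.09. Elovl5, the elongase that acts with Fads1 and Fads2 on polyunsaturated chains, stood at -0.28 for CCl4 against vehicle and 0.33 for CCl4+Rot against CCl4. Its dimmer probe set gave -0.31 and 0.16, with overlapping groups in the rottlerin comparison. The 10 hepatocyte markers had medians of -0.24 and 0.20 in these comparisons, and of -0.08 and 0.04 without CCl4 rat 3. Their part in the result was not tested.

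Among 14 genes of acyl-CoA synthesis and glycerolipid assembly, Acsl3, an acyl-CoA synthetase linked to lipid droplets, had the smallest limma adjusted p of the 4 lists, 0.171 for CCl4 against vehicle. It gave 8.79, 8.63 and 8.78 in vehicle, 10.08, 9.78 and 9.72 in CCl4 and 9.17, 9.20 and 9.50 in CCl4+Rot rats. The 3 groups did not overlap, with CCl4+Rot between the others. The differences were 1.13 ± 0.18 for CCl4 against vehicle, -0.57 ± 0.18 for CCl4+Rot against CCl4 (adjusted p = 0.724) and 0.56 ± 0.18 for CCl4+Rot against vehicle (adjusted p = 0.420). Dgat2, which completes triglyceride, was lower in every CCl4 rat than in any vehicle rat, with 13.01, 13.31 and 13.08 in vehicle and 12.47, 12.70 and 12.35 in CCl4, a difference of -0.62 ± 0.18 (adjusted p = 0.273). Lpin2, a phosphatidate phosphatase, stood at -0.79 ± 0.28 for CCl4 and -0.69 ± 0.28 for CCl4+Rot against vehicle (adjusted p = 0.335 and 0.560). Its CCl4 and vehicle rats overlapped, and a dimmer Lpin2 probe set, present on 6 arrays, gave 0.24 and -0.08. Mogat2 was detected on none of the arrays, so no fold is printed. The genes around triglyceride assembly thus held values on both sides of 0, and the list median was 0.04, or 0.14 without CCl4 rat 3.

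Of 14 regulators, 3 had an unadjusted p below 0.05 for CCl4 against vehicle and none in the other comparisons. Insig1, which holds SREBP proteins in the endoplasmic reticulum and is itself a sterol-regulated gene, stood at 0.93 ± 0.36 (limma adjusted p = 0.365), with vehicle rats at 11.67 to 12.21 and CCl4 rats at 12.31 to 13.26. Srebf2, the SREBP of cholesterol synthesis, stood at 0.79 ± 0.32 (adjusted p = 0.380), with a CCl4 rat inside the vehicle range. Prkaa2, a catalytic subunit of the AMP-activated kinase that inhibits acetyl-CoA carboxylase, stood at -1.02 ± 0.30 (adjusted p = 0.275) and was called absent in CCl4 rat 3. Mlxipl, which encodes ChREBP, stood at -0.14 and, like Srebf1, did not separate the groups. For CCl4+Rot against CCl4, Insig1 stood at -0.63 ± 0.36 (adjusted p = 0.765).

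**Figure D5:**
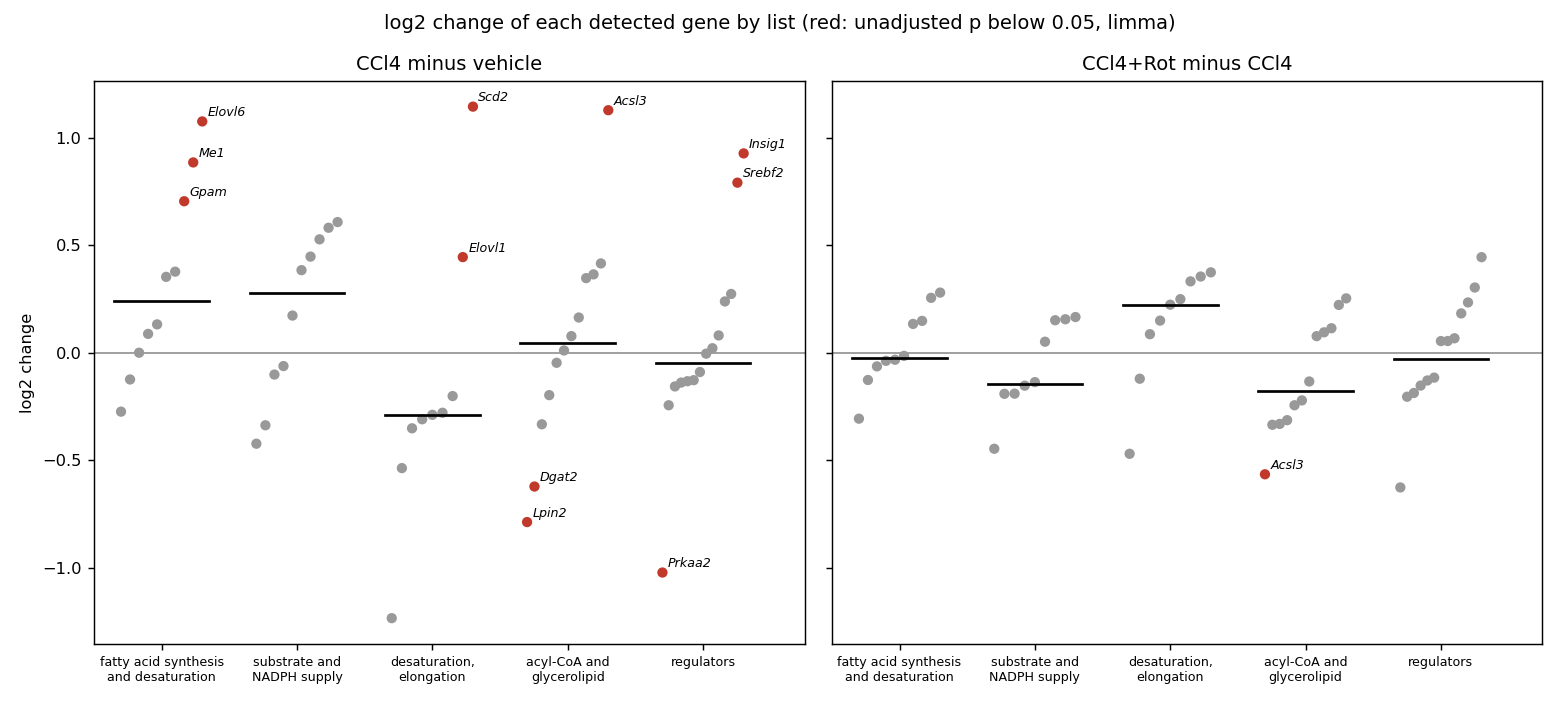
log2 difference (y axis) of each gene of the set and of the 4 lists around it (x axis), for CCl4 against vehicle and CCl4+Rot against CCl4. Points are genes called present on at least 1 array of the groups compared, red where the unadjusted limma p was below 0.05, and lines are medians over the whole list. Red points lie on both sides of 0 in the first comparison, and Acsl3 is red in the second.

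Markers of other cell types were read because Fasn, Acly, Thrsp and Scd are also made in fat. Of 7 adipocyte markers, 3 (Lep, Plin1 and Lipe) were called present on none of the 9 arrays, and the summed level of the 7 was 12.01 to 12.04 in vehicle, 11.91 to 12.06 in CCl4 and 11.71 to 12.11 in CCl4+Rot rats. That sum adds the signals of the 3 undetected markers, of which Lipe read 10.42 in CCl4 rat 3 beside 10.69 for Cidec. It was therefore not read as a level of fat, and single markers differed between groups. Fabp4, a fatty acid binding protein also made by macrophages and endothelium, was called absent in vehicle rats 4 and 5. It stood above every vehicle rat in both treated groups. The difference was 2.40 ± 0.70 (SE) log2 units in CCl4 and 2.39 ± 0.70 in CCl4+Rot rats (limma adjusted p = 0.275 and 0.383). Cidec, a lipid droplet protein, lay below every vehicle rat in both, at -0.67 ± 0.19 and -0.45 ± 0.19 (adjusted p = 0.270 and 0.596). The summed level of 5 macrophage markers was 13.07 to 13.53, 13.01 to 13.53 and 13.58 to 13.88 in the same order of groups. That sum rested largely on Clec4f, with means of 12.69, 12.24 and 12.80. For CCl4 against vehicle 3 of the 5 had a higher mean and 2 a lower, with Cd68 at 0.68 ± 0.25 and Clec4f at -0.45 ± 0.19 (SE). For CCl4+Rot against CCl4 all 5 had a higher mean. The summed level of 5 cholangiocyte markers, of which Krt7 was present on no array, was 9.83 to 10.06, 11.35 to 12.40 and 10.31 to 11.25. The marker of that last list with the greatest difference was Spp1, osteopontin, which other cells of injured liver also make. It alone in its list had an unadjusted p below 0.05 for CCl4 against vehicle, at 5.00 ± 0.72 (limma adjusted p = 0.168). As Spp1 was called absent in all vehicle rats, that value is read as a lower bound. Krt19, at 0.20, overlapped between CCl4 and vehicle, and Epcam, at 0.48, did not. Cftr overlapped as well and was called present only in CCl4 rat 2 among the rats of those groups. The summed stellate cell list had CCl4 rats above all vehicle rats, as did Me1, Elovl6 and Gpam. That sum rested largely on Col3a1. Of its 8 markers, 6 were higher in CCl4 without overlap, while Acta2, at 0.78, and Tagln, at 0.25, overlapped with vehicle. The cholangiocyte sum also had CCl4 rats above all vehicle rats, but it rested largely on Spp1. In CCl4 rats 1 and 3 Spp1 read 12.11 and 11.58, where that sum was 12.40 and 12.05. The part of either cell type in the values of the 3 genes was not tested.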

How the data were processed

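Biotin-labelled cRNA from 9 rat livers was hybridised to Affymetrix rat expression arrays, 1 rat per array. The authors deposited 1 table of log2 signals and calls of detection, as present, marginal or absent, for 31099 probe sets. The submitters' processing notes name MAS5 and the affy package without versions. With 2% trimmed at each end, the antilogs average 500 on each of the arrays, so the deposited log2 values had been scaled to a common mean, and quantiles differ between arrays. The genome build of the table's coordinates is not given in the sources used here. Numbers of arrays limit the precision of every value.

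The deposited values were used as they are. After 57 control probe sets were left out, 31042 were fitted with limma 3.58.1 (R 4.3.3) in one fit of 3 group means over 9 arrays, without covariates, and p-values were adjusted by Benjamini-Hochberg over all of them. Calls needed an adjusted p below 0.05 and the 1.5-fold of the methods. With 3 rats against 3 an exact two-sided permutation test cannot go below 0.1. Members were matched by symbol, each read by the brightest of its probe sets on average over the 9 arrays. Partner genes were named when their unadjusted p was below 0.05, at most 3 a list and comparison, together with Scd and Scd2, and Tkt, Pgd, Elovl5 and Mlxipl were named after their values were seen. Scd is listed in the table as Scd1, and Scd2 as Scd, by Entrez identifier. The members and all lists were chosen with earlier results of these data known. A gene present on no array of either group was given no fold. A gene of the lists is not reported here. Same-group arrays correlated at r = 0.949 to 0.984 and none was a copy of another. Over the probe sets present on all arrays, the deviations of rats with one number in 2 groups correlated at 0.02 to 0.07, so numbers were not taken to pair rats. The alternatives were other scaling (quantile normalization, centring on the median), filters on low or undetected probe sets, fits of the compared groups only, a robust spread that follows the signal (statmod 1.5.0), array weights, the methods' t-test, a replicate block, each array left out, averaging over the probe sets of a gene and other fold thresholds. List medians without CCl4 rat 3 were added after seeing the data. The fits were tested on simulated data with independent noise for each probe set and no array effect. That test does not cover an array such as that of CCl4 rat 3, and no result here rests on it. Promoter windows came from RefSeq (GRCr8).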

Additional observations from a re-analysis of the deposited data

How the results depend on the processing

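None of the 10 genes was called in any of the 3 comparisons under the 23 settings run, the unadjusted t-test of the methods at 1.5-fold included. The same settings moved the calls over all probe sets more: with a robust spread that follows the signal, 348 were called for CCl4 against vehicle and 241 for CCl4+Rot against vehicle, in place of 0 and 8, and among probe sets present on at least 3 arrays 78 and 63. Counts of 0 in the set stand beside 3, 0 and 1 genes at an unadjusted limma p below 0.05. For the arrays the methods name only the 1.5-fold threshold. By that threshold alone 3, 0 and 2 genes were higher, against 28.0%, 6.81% and 15.4% of all probe sets, and none was lower. Over the probe sets present on all arrays, rats of the same number in 2 groups hardly deviated together (correlations 0.02 to 0.07). The number was therefore not taken to pair them. Within the set, however, the rats numbered 4 of the vehicle and CCl4+Rot groups were each lowest in 8 genes and those numbered 5 highest in 7 and 6. With the number as a replicate block 0 genes were called and the median difference over the set for CCl4 against vehicle was 0.24, as without it.

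The median difference over the 10 genes for CCl4 against vehicle was -0.12 with arrays centred on the median of all probe sets, in place of 0.24, and 0.07 to 0.49 with each array left out. That centring sets equal a median that was 7.81 on the array of CCl4 rat 3 and 6.79 to 7.01 on the others.

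Of 630 single-gene values under alternatives, 44 had another sign than with the values as deposited. With arrays centred on the median of all probe sets, the difference of CCl4 from vehicle was -0.0061 for Fasn, -0.23 for Acaca and -0.27 for Acly, that of CCl4+Rot from CCl4 was 0.21 for Fasn, 0.23 for Acly, 0.12 for Me1, 0.18 for Elovl6 and 0.21 for Fads2, and that of CCl4+Rot from vehicle was -0.0388 for Acly. With quantile normalization, CCl4 against vehicle gave 0.087 for Srebf1 and 0.0215 for Fads1, and CCl4+Rot against CCl4 gave 0.0923 for Elovl6. With array weights, the values were 0.11 for Fads1 for CCl4 against vehicle, and 0.10 for Fasn and 0.054 for Acly for CCl4+Rot against CCl4. Averaging its probe sets gave 0.0037 for Srebf1 for CCl4 against vehicle.

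Values of the gene lists without CCl4 rat 3 were added after seeing the data. With each array left out in turn, CCl4 against vehicle ran from -0.11 to 0.40 for Acaca, from -0.11 to 0.30 for Acly, from -0.27 to 0.30 for Srebf1 and from -0.28 to 0.11 for Fads1. CCl4+Rot against CCl4 ran from -0.31 to 0.39 for Fasn, from -0.32 to 0.37 for Acly, from -0.31 to 0.14 for Me1, from -0.34 to 0.21 for Elovl6, from -0.15 to 0.42 for Srebf1, from -0.0486 to 0.32 for Thrsp and from -0.35 to 0.24 for Fads2. CCl4+Rot against vehicle ran from -0.23 to 0.46 for Acly, from -0.0744 to 0.33 for Srebf1, from -0.32 to 0.0478 for Thrsp and from -0.0223 to 0.22 for Fads1. The remaining values had one sign under every setting. For CCl4 against vehicle these were Me1, Elovl6, Gpam, Thrsp and Fads2, and for CCl4+Rot against CCl4 they were Gpam, Acaca and Fads1. For CCl4+Rot against vehicle they were Fasn, Acaca, Me1, Elovl6, Gpam and Fads2. Averaged over its probe sets, Gpam stood at -0.71 for CCl4+Rot against CCl4, with an unadjusted limma p below 0.05.

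With 3 rats a group, differences within the printed intervals could not be resolved. The dimmer probe sets of Acaca, Elovl6 and Gpam were not called present on every array.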
